A study of Rattus norvegicus with 8 samples.

Results

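The rod phototransduction genes are the 9 genes Gnat1, Gnb1, Gngt1, Pde6a, Pde6b, Pde6g, Cnga1, Sag and Grk1, taken by gene name from the spots of a rat array that are not controls. All 9 were found among 26334 gene names, on 23 spots that carry 14 different 60-base oligonucleotides. Gene expression was measured in retinas of female Lister Hooded rats, 8 weeks old, 2 weeks after surgery. In the ONC group (4 retinas) the optic nerve was crushed behind the eye, and in the CTR group (4 retinas) sham surgery exposed the nerve without closing the forceps on it. RNA of each retina was labeled with Cy3 or Cy5 and hybridized onto 4 two-color Agilent arrays, so that each of the 8 channels is a retina. By the labels, same-numbered CTR and ONC retinas share an array, where Cy5 marks the CTR retina and Cy3 the ONC retina.

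Rods detect dim light in the outer retina, while the crush severs the axons of retinal ganglion cells in the inner retina. In a rod, the activated visual pigment switches on the G protein transducin, transducin releases the inhibition of a cyclic GMP phosphodiesterase, and the fall in cyclic GMP closes cation channels in the outer segment membrane. A kinase and an arrestin then shut the pigment off. Whole retina was measured here, so fewer rods and less RNA per rod cannot be told apart.

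The dyes were aligned with the conditions by the labels, so dye and condition cannot be told apart under the labels used here. The methods of the study divide the dyes within each group instead. They also place retinas of the same group together on an array, whereas by the labels each array holds a CTR and an ONC retina. Counts of arrays and fits with the array as a block therefore rest on a pairing that the methods do not give. Markers of retinal ganglion cells went against most of the labels. A crush of the optic nerve kills ganglion cells, so their markers fall in the retina, and the study itself reports them as lower after the crush. Of 13 such markers, 12 were found by name (not Pou4f1) and 10 passed (not Pou4f3 and Isl2) the filter on dim and irregular spots. The median log2 difference of these 10 from their own means was -1.52, 1.16, -1.14 and -0.97 in channels CTR1 to CTR4. In channels ONC1 to ONC4 it was 1.24, 1.24, 1.37 and -1.18. By this median the markers were low in 3 channels labeled sham and high in 3 channels labeled crush, so 6 of the 8 labels were contradicted. Only CTR2 and ONC4 had the median level that their label implies. Single markers could differ from the median. Tubb3 was at 1.02, 1.80, 1.17 and 1.80 in CTR1 to CTR4 and at 2.84, 2.43, 2.92 and 2.24 in ONC1 to ONC4. Its groups did not overlap, as in 12.7% of all genes in either direction. By the labels all 10 markers had a higher mean in ONC and their median log2 fold change was 1.29. The study reports the opposite direction for them, except for Rbpms and Stmn2, for which its text and tables give none. Limma called 0 of the 10, against 0.497% of all genes, with 1 at an unadjusted p under 0.05, against 18.6%. After scaling each channel to its median in place of loess, it called 1 of the 10 (Tubb3, adjusted p = 0.0147), against 19.6% of all genes.

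The summed linear level of the 10 markers was 11.7, 39.1, 13.2 and 17.7 for CTR1 to CTR4. For ONC1 to ONC4 the sum was 45.1, 44.9, 45.7 and 15.05. Stmn2 had the highest mean signal of them, although signals of different oligonucleotides are not comparable as abundance. Of the 12 found, 0 were without a channel in which they stood well above background. The labels alone tie a retina to a channel, and no channel was assigned again from its values. CTR and ONC are therefore names of labeled channels here, and no sign given for ONC minus CTR can be read as the direction of a change after the crush. Results are also given without CTR2 and ONC4. That choice was made from the marker levels, it leaves only the 6 channels that go against their labels, and it sets 3 channels with low markers against 3 with high markers, so its p values are a description and no test of the crush.

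The median foreground of a channel was 447 to 626 in CTR over a background of 55.0 to 56.5, and 218 to 495 in ONC over 26.0 to 29.5. All 23 spots of the rod genes were well above background in all 8 channels, and none was saturated. The lowest foreground was 24.7 times background, for the oligonucleotide A_64_P066815 of Gngt1. The other oligonucleotide of Gngt1, A_64_P058532, had a foreground of 81577 to 237176. For Pde6g the lowest foreground was 2441 times background. After the filter, 20 spots and 13 oligonucleotides remained, and all 9 genes were measured. The filter took 2 of the 10 repeated spots of Gnat1 and the oligonucleotide A_64_P035973 of Grk1, each marked as irregular in ONC4. How many of the genes remain depends on which outlier marks are counted. When a mark for an unusual local background was counted too, only 4 of the 9 genes remained (Gnb1, Gngt1, Sag and Grk1), and all 10 repeated spots of Gnat1 were lost.

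Between the labels, limma called 0 of the 9 rod genes at an adjusted p under 0.05, against 81 of 16307 genes (0.497%). At an unadjusted p under 0.05 there were 2 of 9, Gnb1 and Sag, against 18.6% of all genes. The methods' t-test gave 1 of 9 before adjustment, against 16.5% of all genes, and 0 after it. The study joins this test with a cut-off on fold change for each gene, which was not applied here. In the ONC channels, 4 genes had a higher and 5 a lower mean, and the median log2 fold change of the 9 was -0.14, beside -0.01 over all genes. The sign of this median rested on single channels, since it was 0.030 without ONC2 and 0.0012 without CTR1. In all 3 cases the median is the value of a single gene, Pde6g. Of the 9 genes Pde6g had the largest standard error (0.22, adjusted p = 0.791 by limma). By the labels CTR and ONC channels share arrays, and with the array as a block limma called 0 of the 9 genes and 1254 of all genes (7.69%).

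These values depended on the normalization too. With each channel scaled to its median and no loess, all 9 genes had a lower mean in ONC, and their median log2 fold change was -0.31 beside 0.07 over all genes, and 3 of the 9 were called by limma (Gnat1, Gnb1 and Sag) against 19.6% of all genes. Under that scaling 71.0% of all calls were higher in ONC, compared with 46.9% of the calls after loess. Unlike loess, median scaling leaves in place dye differences that change with brightness, and by the labels dye and condition are aligned. All 9 genes were bright, with log2 levels above the channel median in every channel (lowest 3.43 under that scaling, Gngt1 in ONC2). The part of such dye differences in these values was not tested. Without the channels labeled CTR2 and ONC4, limma called 1 of the 9 (Gnb1) against 2.54% of all genes, and the median log2 fold change was -0.35.

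**Figure D1:**
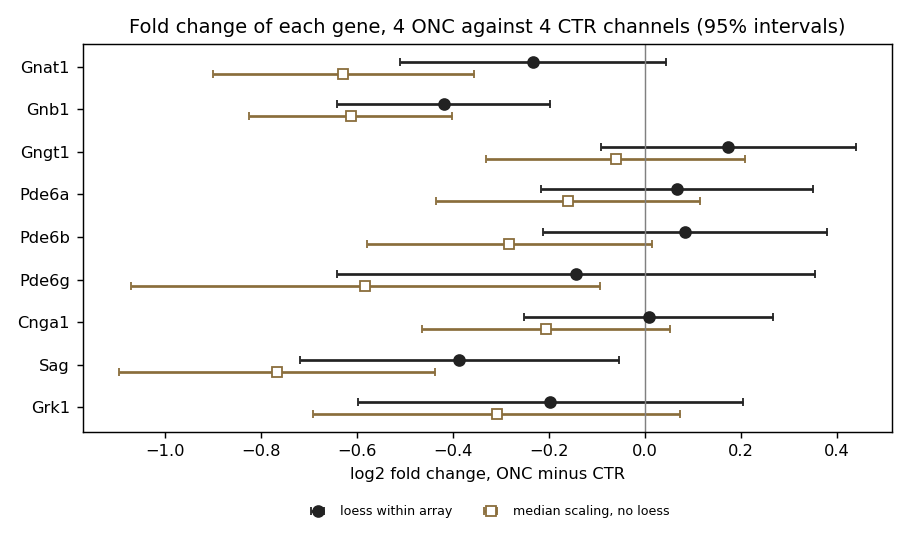
Log2 fold change of each rod phototransduction gene, ONC minus CTR, after loess within the array (filled circles) and after median scaling with no loess (open squares), with 95% intervals from limma over 4 channels per group. The open squares are all below 0, while Gngt1, Pde6a, Pde6b and Cnga1 are above 0 after loess.

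Transducin, the G protein of the rod, has the subunits encoded by Gnat1 (alpha), Gnb1 (beta) and Gngt1 (gamma). Gnb1 is also widely expressed outside photoreceptors. Its log2 levels were 5.02, 4.86, 5.04 and 4.89 in CTR1 to CTR4 and its levels in ONC1 to ONC4 were 4.36, 4.53, 4.51 and 4.73. All 4 ONC channels were below all 4 CTR channels, and Gnb1 was the only one of the 9 genes whose groups did not overlap, against 12.7% of all genes in either direction and 6.92% with ONC lower. The log2 fold change was -0.42 (standard error 0.10, adjusted p = 0.0811 by limma), lower in ONC on 4 of 4 arrays. This did not pass the threshold, and with the array as a block the adjusted p was 0.0533. Without the channels labeled CTR2 and ONC4 the log2 fold change was -0.52 (adjusted p = 0.0480 by limma). It was -0.61 with the median scaling and -0.24 with the signals that the scanner software had processed (adjusted p = 0.238 by limma). Over all alternatives tried the adjusted p of Gnb1 was 0.00900 to 0.387. The oligonucleotide of Gnb1 on the array lies at chr5:172384129-172384188 of the rn4 build, on the plus strand. It is printed below with single oligonucleotides of Gnat1 (chr8:112926922-112926981, minus strand) and Sag (chr9:86770545-86770604, plus strand), the genes with the lowest fold changes, to show what the array reads. For Gnat1 and Sag the value is the mean of 2 oligonucleotides, of which 1 is printed. No base is in capitals because no stretch is singled out.
Gnb1 A_64_P384857: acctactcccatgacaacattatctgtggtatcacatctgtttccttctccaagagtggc
Gnat1 A_64_P048305: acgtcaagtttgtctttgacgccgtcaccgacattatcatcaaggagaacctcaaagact
Sag A_64_P054775: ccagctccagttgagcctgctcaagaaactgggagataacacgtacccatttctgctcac

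Gnat1, whose product carries the signal from the pigment to the phosphodiesterase, had log2 levels of 6.88, 6.49, 6.58 and 6.69 in CTR1 to CTR4 and of 6.48, 6.17, 6.46 and 6.61 in ONC1 to ONC4. The groups overlapped, with ONC2 lowest and CTR1 highest. The log2 fold change was -0.23 (standard error 0.12, adjusted p = 0.354 by limma), lower in ONC on 4 of 4 arrays. With the median scaling it was -0.63 (adjusted p = 0.0126 by limma), in a range of adjusted p from 0.0126 to 0.717 over the alternatives. Both oligonucleotides of Gnat1 gave a lower mean in ONC, at -0.29 for A_42_P491454 and -0.18 for A_64_P048305. The first is printed on the array 10 times. The spots left out were marked as irregular in ONC4, so only in ONC4 does the SD lack irregular spots. The 8 remaining spots show the technical error within a channel, apart from that removal. Their SD on the log2 scale was 0.04 in CTR1, 0.04 in CTR2, 0.05 in ONC1, 0.05 in ONC2 and 0.08 in ONC4, but 0.30 in CTR3, 0.25 in CTR4 and 0.44 in ONC3. In the last of these, the repeated spots ranged from 6.28 to 7.36. This is a range of single spots, while the groups differ in means over spots and channels, so the range is no measure for that difference.

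Gngt1, the gamma subunit, had log2 levels of 3.62, 3.34, 3.78 and 3.58 in CTR1 to CTR4 and of 3.79, 3.54, 3.80 and 3.89 in ONC1 to ONC4. It was higher in ONC on 4 of 4 arrays, but the groups overlapped. Its difference between the groups was 0.17 in log2 (standard error 0.12, adjusted p = 0.474 by limma), and -0.06 with the median scaling. Its oligonucleotides had the same direction after loess, at 0.23 and 0.12.

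The phosphodiesterase consists of the catalytic subunits encoded by Pde6a and Pde6b and the inhibitory subunit encoded by Pde6g. Pde6b had log2 levels of 6.32, 6.04, 6.27 and 6.43 in CTR1 to CTR4 and of 6.50, 6.02, 6.44 and 6.44 in ONC1 to ONC4. ONC2 was apart from the other ONC channels and beside CTR2, and the groups overlapped. Pde6a ranged from 4.25 to 4.65 in CTR and from 4.36 to 4.78 in ONC. The log2 fold changes were 0.07 for Pde6a and 0.08 for Pde6b, within the spread between replicates, with adjusted p of 0.834 and 0.794 by limma. Both were negative with the median scaling, at -0.16 and -0.28. The oligonucleotides of Pde6a differed in sign, at 0.14 for A_64_P013666 and -0.01 for A_64_P013669.

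Pde6g had the widest spread of the 9 genes in CTR, with log2 levels of 7.46, 6.59, 7.03 and 7.04 in CTR1 to CTR4 and of 6.91, 6.37, 7.03 and 7.24 in ONC1 to ONC4. The channels labeled CTR2 and ONC2, which share an array, were the lowest of their groups. In log2, ONC minus CTR was -0.14 (standard error 0.22, adjusted p = 0.791 by limma). It became 0.03 without ONC2 and 0.19 with the signals that the scanner software had processed. It was -0.58 with the median scaling (adjusted p = 0.0899 by limma), -0.41 without CTR2 and ONC4, and -0.29 without CTR2.

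Cnga1 encodes a subunit of the cation channel that closes when cyclic GMP falls. Its log2 level was 4.94 ± 0.16 (SD, n = 4) in CTR and 4.95 ± 0.16 (SD, n = 4) in ONC. Its log2 fold change was 0.0084 with a 95% interval from -0.25 to 0.27, so a difference within that interval was not resolved. Median scaling gave -0.21.

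Sag and Grk1 act in the shut-off of the pigment. Sag, the rod arrestin, had log2 levels of 6.73, 6.42, 6.74 and 6.49 in CTR1 to CTR4 and of 6.21, 5.85, 6.24 and 6.53 in ONC1 to ONC4. ONC1, ONC2 and ONC3 were below all CTR channels, and ONC4 was among the CTR channels. The log2 fold change was -0.39 (standard error 0.15, adjusted p = 0.208 by limma), lower in ONC on 3 of 4 arrays. The median scaling gave -0.76 (adjusted p = 0.0125 by limma), in a range of adjusted p from 0.0125 to 0.503 over the alternatives. Without the channels labeled CTR2 and ONC4, Sag was at -0.55 (adjusted p = 0.0781 by limma). With processed signals Sag was at -0.23 (adjusted p = 0.503 by limma). Its oligonucleotides had the same direction, at -0.34 for A_64_P018317 and -0.43 for A_64_P054775.

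Grk1, the kinase that phosphorylates the activated pigment, had log2 levels of 4.11, 3.81, 3.93 and 3.91 in CTR1 to CTR4 and of 3.59, 3.49, 3.58 and 4.31 in ONC1 to ONC4. ONC4 was the highest of all 8 channels and the other ONC channels were the lowest. ONC minus CTR was -0.20 in log2 (standard error 0.18, adjusted p = 0.606 by limma), and -0.39 without ONC4. All these values are from a single oligonucleotide. The other, A_64_P035973, was marked as irregular in ONC4, where its foreground was 899, against 9465 to 14491 in ONC1 to ONC3.

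**Figure D2:**
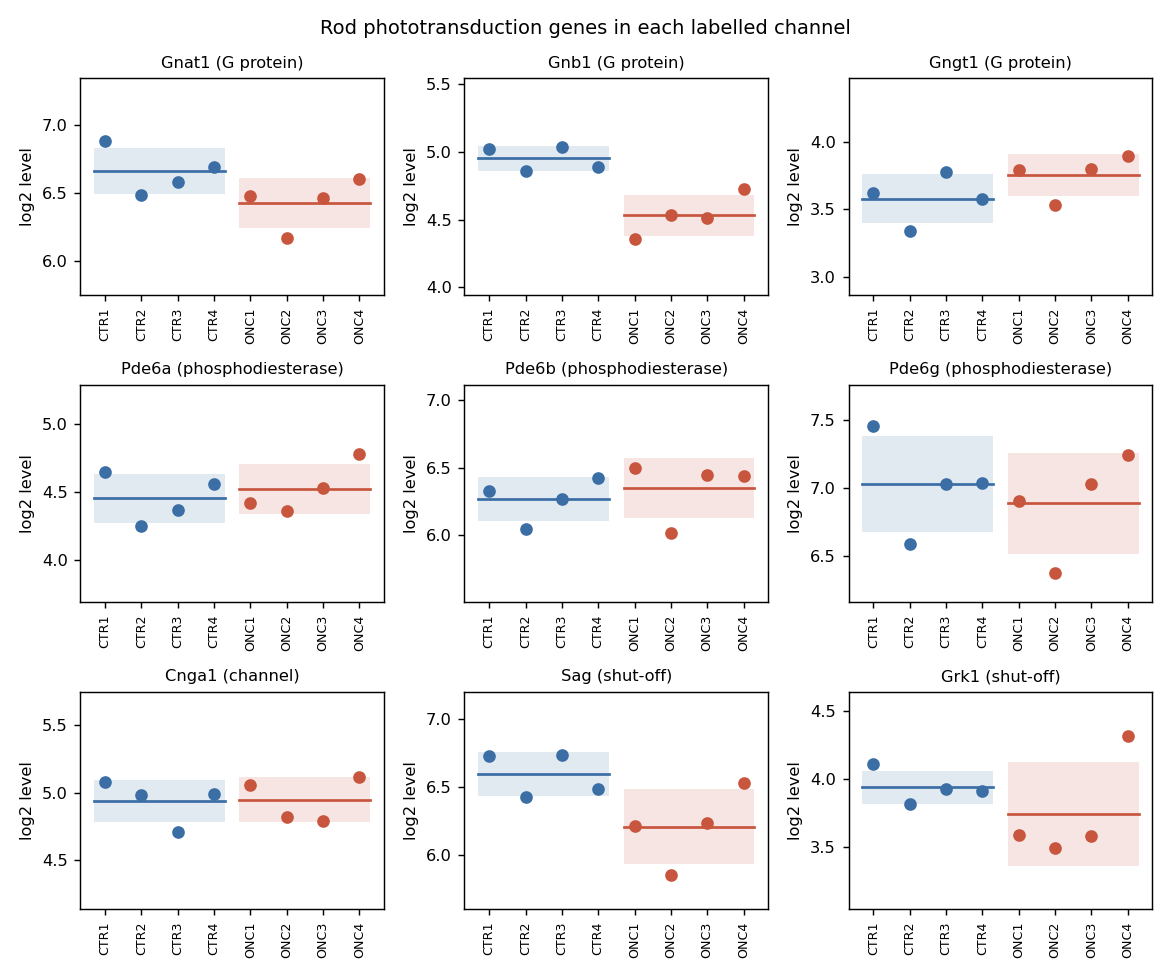
Normalized log2 level of the 9 rod phototransduction genes in each of the 8 labeled channels, one panel per gene, with the mean (line) and SD (band) of each group of 4 (CTR blue, ONC red), each panel spanning the same log2 range around its own mean. Only in Gnb1 are the ONC points all below the CTR points, and in Grk1 ONC4 is above the other 7 channels.

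Across channels, the median log2 difference of the 9 genes from their own means was 0.27, -0.06, 0.07 and 0.08 for CTR1 to CTR4. For ONC1 to ONC4 it was -0.07, -0.29, -0.09 and 0.17. The channel labeled CTR2 was thus below 0 with ONC1 to ONC3, and the channel labeled ONC4 was above 0 with the other CTR channels. Of the 9 genes, 8 were above their own mean in CTR1, 8 in CTR4 and 8 in ONC4, while 0 were in ONC2. The sign of this median was opposite to that of the ganglion cell markers in all 8 channels after loess, while with the median scaling the rod genes were at 0.016 in CTR2. This was not particular to the rod genes. The median of 7 Müller glia markers, at 0.01, -0.06, 0.28 and 0.38 in CTR1 to CTR4 and at -0.14, -0.27, -0.15 and 0.09 in ONC1 to ONC4, also had the opposite sign in all 8 channels, and the other rod pathway genes and the microglia markers had it in 7 of 8. The opposite sign stood in 6 of 8 channels for the cone list and in 5 for the amacrine and the horizontal markers. It stood in 4 for the photoreceptor identity genes and the pigment epithelium, lens and blood markers, and in 3 for bipolar markers. The part of the ganglion cell markers in the differences of the rod genes was not tested.

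**Figure D3:**
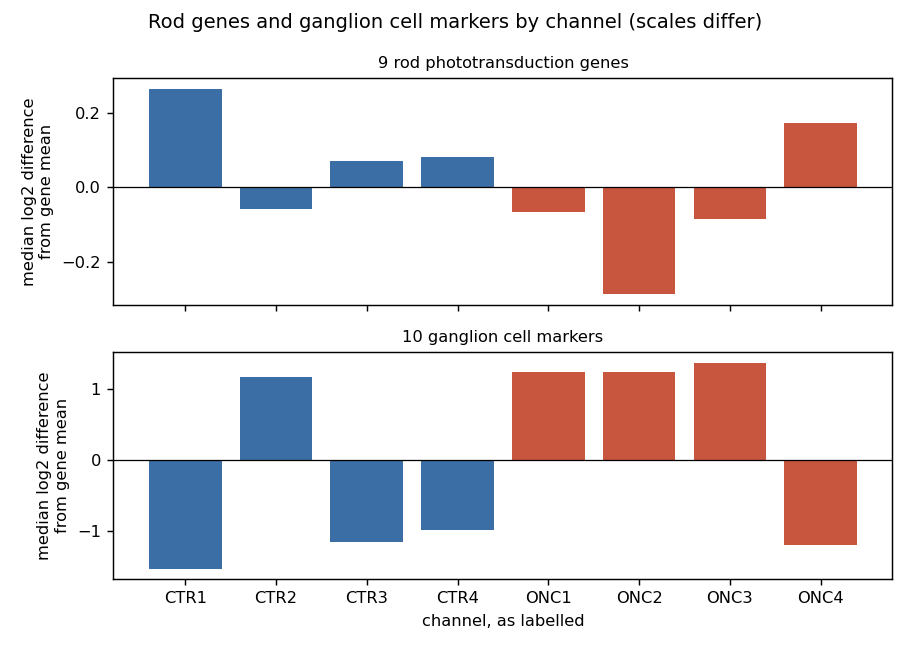
Median log2 difference from each gene's own mean in each labeled channel, for the 9 rod phototransduction genes (top) and 10 ganglion cell markers (bottom), with CTR in blue and ONC in red and a different vertical scale in each panel. The rod genes are highest in CTR1 at 0.27 and lowest in ONC2 at -0.29, and the signs of the panels are opposite in every channel after loess.

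The genes outside the 9 whose values over the 8 channels were most like the mean of the rod genes were ENSRNOT00000032922 (Pearson r = 0.979), Kif15 (0.978), Plekha1 (0.972) and the array oligonucleotides A_64_P095695 (0.972) and A_64_P094875 (0.971), which carry no gene symbol. All these coefficients are over the same 8 channels and serve as a description of likeness.

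Other genes of the rod pathway were measured as well. Of 18 genes listed, 16 passed the filter, of which 4 were higher and 12 lower in ONC. Their median log2 fold change was -0.10, and limma called 0, with 5 at an unadjusted p under 0.05 (18.6% of all genes). Rcvrn and Guca1a did not pass. Gnb5, part of the complex that speeds the turn-off of transducin, had the largest difference. Its level was 2.55 ± 0.14 (SD, n = 4) in CTR and 1.97 ± 0.24 (SD, n = 4) in ONC, and its log2 fold change was -0.58 (standard error 0.13, adjusted p = 0.0782 by limma). Unc119, which binds the transducin alpha subunit, was at -0.56 (standard error 0.13, adjusted p = 0.0837 by limma). Guca1b, an activator of the guanylate cyclase that restores cyclic GMP, was at -0.43 (standard error 0.14, adjusted p = 0.153 by limma). With the array as a block limma called these 3 genes of the 16, against 7.69% of all genes, with adjusted p of 0.0304 for Gnb5, 0.0318 for Unc119 and 0.0304 for Guca1b. With the median scaling their adjusted p was 0.0157, 0.00839 and 0.0127, and Aipl1 was called too (0.0102), so that 4 of the 16 were called against 19.6% of all genes.

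The cone pathway uses related proteins. Of 10 cone genes, 9 passed the filter, 2 were higher and 7 lower in ONC, the median log2 fold change was -0.32, limma called 0 and 4 had an unadjusted p under 0.05 (18.6% of all genes). Pde6h, the cone relative of Pde6g, was at -0.39 in log2 fold change (adjusted p = 0.184 by limma). Cngb3, a subunit of the cone channel, was at -0.37 (adjusted p = 0.111 by limma) and Opn1mw, a cone pigment, at -0.37 (adjusted p = 0.0668 by limma). With the array as a block these 3 of the 9 were called, against 7.69% of all genes, at adjusted p of 0.0327, 0.0486 and 0.0358. With the median scaling the adjusted p was 0.0260 for Pde6h, 0.302 for Cngb3 and 0.0149 for Opn1mw, so 2 of the 9 were called, against 19.6% of all genes. The cone relatives of transducin, Gnat2, Gnb3 and Gngt2, were at -0.28, -0.32 and 0.23. The relatives of the other genes, Pde6c and Arr3, were at 0.07 and -0.04. Limma called 0 of these 5, with or without the block. Cnga3 did not pass the filter. The difference between the rod and the cone list was not tested.

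Among the genes that keep photoreceptors in their identity and outer segments in shape, 6 of 8 were measured. Nr2e3 was not found by name and Prph2 did not pass the filter. Of the 6, 3 were higher and 3 lower in ONC, their median log2 fold change was -0.13, and limma called 0, with 1 at an unadjusted p under 0.05 (18.6% of all genes). Rom1, a protein of the outer segment discs, was at -0.41 (adjusted p = 0.185 by limma). With the median scaling Rom1 was at -0.79 (adjusted p = 0.0130 by limma), the only one of the 6 called, against 19.6% of all genes, and with the array as a block its adjusted p was 0.0913. Crx, a photoreceptor transcription factor, was at -0.30 (adjusted p = 0.429 by limma), and Rp1, a protein of the outer segment axoneme, at -0.29 (adjusted p = 0.411 by limma). The adjusted p of Crx was 0.0484 with the array as a block, where it was the only one of the 6 called, against 7.69% of all genes, and 0.237 with the median scaling. The methods' t-test was not counted over these lists.

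**Figure D4:**
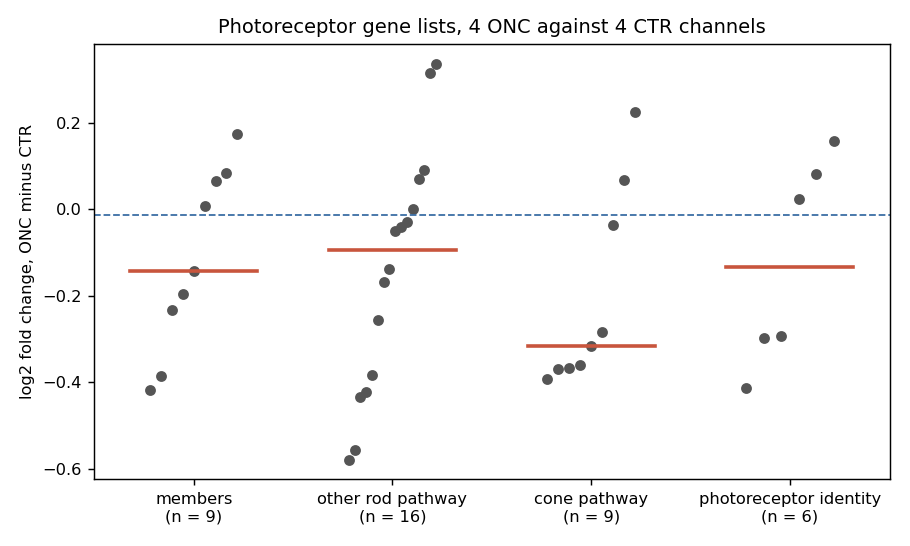
Log2 fold change, ONC minus CTR, of each measured gene (points) of 4 lists, with the median of each list (red line) and of all genes (dashed blue line, -0.01). The list medians are -0.14, -0.10, -0.32 and -0.13 from left to right.

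The measure of expression variability used in the methods, REV, is a pooled coefficient of variation among the retinas of a group, corrected for the number of values. In CTR, 8 of the 9 rod genes had a REV under the median of all genes (25.1%), and in ONC 3 of 9 did (21.7%). The median REV of the 9 was 21.5% in CTR and 24.5% in ONC. For 7 of the 9 genes it was the higher in ONC, beside 41.5% of all genes, although for Gngt1 (16.4% and 16.5%) and Pde6a (19.7% and 20.5%) the values were close. The widest gap was in Grk1, at 18.6% in CTR and 63.9% in ONC, where ONC4 was apart from the others. Pde6g was variable in both groups, at 52.6% and 51.1%. The study reports a slight shift to higher REV after the crush, whereas here the median over all genes was lower in ONC by the labels. Each labeled group held channels with low and with high ganglion cell markers. REV is thus the spread within a labeled group here. REV was not compared by a test.

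**Figure D5:**
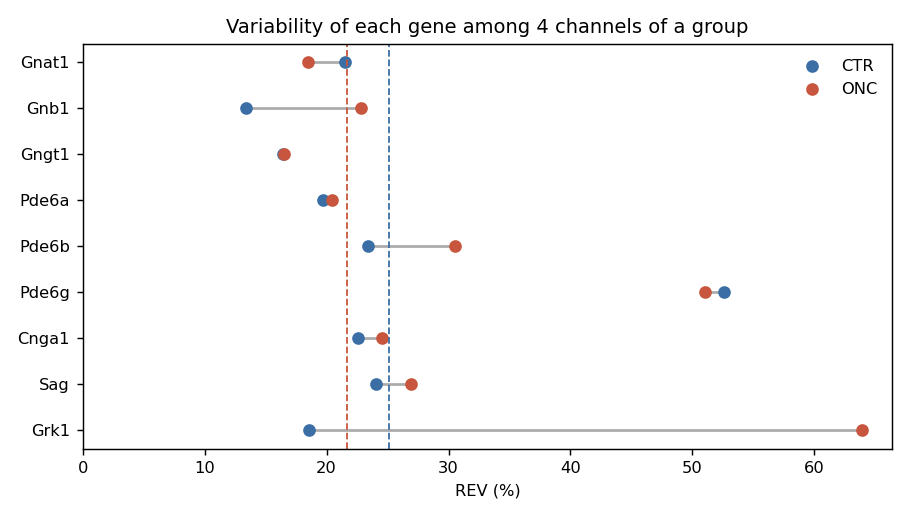
REV in percent of each of the 9 rod phototransduction genes in CTR (blue) and ONC (red), with the medians of all genes as dashed lines. Grk1 in ONC, at 63.9%, is the highest point, followed by Pde6g in both groups.

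The 250 bases before the start sites of the rod genes in RefSeq (build GRCr8) were searched on both strands. The search was for the core motifs of the photoreceptor factors CRX (TAATCC) and NRL (TGCTGA). Of the 9 genes, 6 matched a promoter by symbol (not Gnat1, Pde6g and Grk1). Of these, 2 held the first motif (Gngt1 and Pde6a), against 6.34% of 33469 promoters, and 2 the second (Pde6b and Sag), against 15.1%. Such matches are a description of letters in this window. Neither enrichment over these 6 promoters nor a link to the levels in the channels was tested. The windows of Gngt1 (chr4:32960695-32960944, plus strand), Pde6b (chr14:1511436-1511685, minus strand) and Sag (chr9:95916947-95917196, plus strand) follow, read in the direction of the gene, with the motifs in capitals.
Gngt1: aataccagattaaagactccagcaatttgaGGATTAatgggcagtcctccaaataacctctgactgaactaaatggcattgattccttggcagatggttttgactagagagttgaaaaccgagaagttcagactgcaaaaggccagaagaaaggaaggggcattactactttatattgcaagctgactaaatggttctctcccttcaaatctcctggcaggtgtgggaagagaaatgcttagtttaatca
Pde6b: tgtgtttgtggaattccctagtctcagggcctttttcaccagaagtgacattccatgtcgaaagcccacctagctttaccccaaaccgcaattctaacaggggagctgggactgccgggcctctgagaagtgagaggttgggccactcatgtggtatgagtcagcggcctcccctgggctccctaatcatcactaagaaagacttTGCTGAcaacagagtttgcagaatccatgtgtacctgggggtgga
Sag: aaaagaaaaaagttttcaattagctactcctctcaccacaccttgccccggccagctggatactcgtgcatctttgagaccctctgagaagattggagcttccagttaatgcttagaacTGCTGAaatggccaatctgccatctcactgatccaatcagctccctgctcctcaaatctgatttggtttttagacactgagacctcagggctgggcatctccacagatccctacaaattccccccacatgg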

How the data were processed

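The authors deposited intensity values per spot from Agilent Feature Extraction (11.1.19.1 in the submitters' processing notes, 12.0.3.1 per the file headers): mean foreground, median local background and a processed signal. The members and lists were chosen with earlier results of these data known. Spots were left out if they were controls, had a foreground under 2 times background in any channel, or carried an outlier flag. The plan did not say which flags. Of 3 sets tried, the 3 flags used here were picked because the number of spots kept, 27371 (18599 oligonucleotides, 16307 genes), equaled that of an earlier processing of these files, so that match is no independent check. All 4 flags kept 24110 spots, and the 2 flags of the spot itself kept 27587. Both are given among the alternatives. Background was subtracted, arrays were normalized by loess, channels were centered on the median, and spots, then oligonucleotides of a gene, were averaged on log2. The test between ONC and CTR was that of limma, version 3.58.1, run under R 4.3.3 (two-sided, Benjamini-Hochberg over all genes, unpaired as in the methods), tested on simulated data. Deviations of same-numbered channels, which share an array by the labels, correlated at 0.15, 0.55, 0.40 and 0.49 across genes. CTR1 correlated with ONC2 at 0.17, so array 1 did not stand out as a pair. The block follows the labels, while the methods of the study place retinas of the same group together on an array. Named genes are the 9 members, the called genes and 3 largest differences of each list, cone relatives, and the 5 most alike profiles. Alternatives were normexp (offset 50), median scaling, Aquantile, processed signals, no filter, a filter at 4 times background, the block, each retina left out, 4 channels whose dye both sources give alike, the brightest oligonucleotide of a gene and the methods' t-test. Dropping the channels labeled CTR2 and ONC4, and the other flag sets, were added after the data were seen. The number of arrays limits the precision.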

Additional observations from a re-analysis of the deposited data

Results flagged for a closer look

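In 28 groups of 4 channels examined (each rod gene and 5 list medians, in CTR and in ONC), 3 values were far from the others of their group, and chance gives about 1 in 20 groups. Pde6b was at a log2 level of 6.02 in ONC2, where ONC1, ONC3 and ONC4 were at 6.44 to 6.50. Grk1 was at 4.31 in ONC4, where ONC1 to ONC3 were at 3.49 to 3.59. This is the value of a single oligonucleotide. The other, left out by the filter because it was marked as irregular in ONC4, had a foreground of 899 there and 9465 to 14491 in ONC1 to ONC3. The median of the ganglion cell markers, relative to their own means, was -1.18 in ONC4 and between 1.24 and 1.37 in ONC1 to ONC3. A low level of these markers is what the label of ONC4 implies, and the high levels in ONC1 to ONC3 go against theirs. The causes were not tested.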

How the results depend on the processing

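For all genes, limma called 81. It called 14 with normexp, 3194 with median scaling without loess, 412 with Aquantile, 21 with processed signals, 0 with no filter on dim spots, 379 at 4 times background, 1254 with the replicate block, 0 in the 4 channels whose dye both sources give alike, 124 with the brightest oligonucleotide and 415 without the channels labeled CTR2 and ONC4. With all 4 outlier flags it called 113, and with 2 flags 80. The methods' t-test, without the study's cut-off on fold change, gave 2690 before and 0 after adjustment. Leaving out a retina gave 0 to 38 (38 without ONC2). Of the 9 rod genes, 3 were called with median scaling, 1 without CTR2 and ONC4, and 1 by the methods' t-test before adjustment. Their median log2 fold change, -0.14, was -0.021 with processed signals and -0.059 in the 4 channels whose dye both sources give alike. These are CTR2 and CTR4 in Cy5 and ONC1 and ONC3 in Cy3, so dye and label stay aligned there. The median was -0.31 with median scaling, -0.35 without CTR2 and ONC4, and -0.33 with all 4 outlier flags, over the 4 genes left. It ranged from -0.26 to 0.030 with a retina left out (0.0012 without CTR1, -0.24 without CTR2, 0.030 without ONC2 and -0.26 without ONC4). Gnat1, Pde6a, Pde6b, Pde6g and Cnga1 had no value with all 4 outlier flags. Dropping CTR2 and ONC4, which leaves the 6 channels whose ganglion cell markers go against their labels, and both other flag sets were chosen after seeing the data. The other rod list, at -0.095, moved to 0.052 in the 4 channels whose dye both sources give alike and was -0.17 without CTR2 and ONC4. It was -0.047 with all 4 outlier flags and -0.051 at 4 times background. It ranged from -0.19 (without CTR4) to -0.048 (without CTR1) with a retina left out, with -0.15 without CTR2. The cone list was at -0.38 with median scaling, -0.26 with no filter and -0.26 in the 4 channels, and ranged from -0.34 to -0.24 with a retina left out. Signs turned with median scaling for Gngt1 (-0.061), Pde6a (-0.16), Pde6b (-0.28) and Cnga1 (-0.21), with processed signals for Pde6g (0.19) and Cnga1 (-0.021), in the 4 channels for Pde6g (0.15) and Cnga1 (-0.059), without CTR2 and ONC4 for Pde6a (-0.089), Pde6b (-0.021) and Cnga1 (-0.034), and with the brightest oligonucleotide for Pde6a (-0.0091). With a retina left out, Pde6a ranged from -0.020 to 0.13, Pde6g from -0.29 to 0.030 and Cnga1 from -0.068 to 0.060. Pde6b (0.083) ranged from 0.0089 without CTR2 to 0.19 without ONC2. Gngt1 (0.17) was 0.095 without CTR2, Gnat1 (-0.23) was -0.15 without ONC2, and Grk1 (-0.20) was -0.11 without ONC2 and -0.39 without ONC4. Gnb1 ranged from -0.48 to -0.36 and Sag from -0.49 to -0.27 with a retina left out. Gnb1 was at -0.24 with processed signals and -0.61 with median scaling. Sag was at -0.23 with processed signals, -0.76 with median scaling and -0.23 in the 4 channels. Also in the 4 channels, Gngt1 was at 0.33 and Gnat1 at -0.12. The causes were not tested. The block changed no call among the 9 rod genes. Leaving out any single retina gave 0 calls among them. The lowest foreground of a rod gene was 24.7 times background.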

Other observations

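Markers of other retinal and nearby cell types were read in the same fit, and limma called 0 in each list at an adjusted p under 0.05. At an unadjusted p under 0.05, where 18.6% of all genes lie, there were 1 of 6 rod, 2 of 6 cone, 3 of 7 bipolar, 3 of 9 amacrine, 0 of 4 horizontal, 2 of 7 Müller glia, 4 of 9 microglia, 1 of 4 pigment epithelium, 2 of 8 lens and 0 of 4 blood markers. With the array as a block, where 7.69% of all genes were called, limma called 2 Müller glia markers (Slc1a3, adjusted p = 0.0336, and Vim, 0.0409), 1 amacrine marker (Slc6a9, 0.0334) and 2 of the cone markers (Pde6h and Opn1mw), and 0 in the other lists. These marker genes are named because their count is small, after their values were seen. With the median scaling without loess, where 19.6% of all genes were called, limma called 2 rod, 2 cone, 2 bipolar (Prkca, adjusted p = 0.0360, and Cabp5, 0.0197), 2 amacrine (Slc6a9, 0.0474, and Slc32a1, 0.0203), 1 horizontal (Onecut2, 0.0186), 1 Müller glia (Vim, 0.0169), 1 microglia (P2ry12, 0.0416) and 2 lens markers (Cryaa, 0.0358, and Cryab, 0.0358), and 0 pigment epithelium and 0 blood markers. Slc1a3 was not called there (0.0768). The median log2 fold change, ONC minus CTR, was 0.037 for rod and -0.32 for cone markers, which share genes with the lists of the report. It was 0.23 for bipolar, -0.015 for amacrine, -0.056 for horizontal, -0.33 for Müller glia and -0.41 for microglia markers. Outside the neural retina it was 0.23 for pigment epithelium, -0.40 for lens and 0.15 for blood markers. The part of these cells in the values of the rod genes was not tested.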
